A study of Homo sapiens with 13 samples.

Results

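The report concerns ENG (endoglin) and 8 further genes of the TGF-beta and BMP pathways, chosen by symbol: the co-receptor TGFBR3, the type I receptors TGFBR1 and ACVRL1, the type II receptors TGFBR2 and BMPR2, the ligands TGFB1 and TGFB2, and the inhibitory SMAD7. In GENCODE 29, ENG and TGFBR1 lie on chromosome 9, TGFBR3 and TGFB2 on 1, BMPR2 on 2, TGFBR2 on 3, ACVRL1 on 12, SMAD7 on 18 and TGFB1 on 19. All 9 were in the bulk table of 57820 gene identifiers. Of the 9, 7 were in the single-cell table of 15005 genes, and TGFB1 and ACVRL1 were not analysed here in cells. ENG was listed because of its difference between the bulk arms, so the bulk values of the members are a description and none of them is offered as a test of the list.

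All tumours were grown from 1000000 BM1 cells placed orthotopically, in the mammary fat pad, in nude mice, which are athymic. BM1 was derived from MDA-MB-231, a breast cancer line of human origin, and is bone-tropic. The bulk tumours, collected after 4 weeks, were 5 of BM1 cells with lentiviral KMT5C, a histone H4 lysine 20 methyltransferase, and 5 of BM1 cells with the vector control (CTRL), both selected after transduction. The single-cell tumours, collected after 3 weeks, were 3 of BM1 cells expressing the S153E form of RKIP, an inhibitor of the RAF kinase cascade, and 3 of vector-control BM1 cells (CTRL). They were dissociated, depleted of mouse and dead cells, and run on a Fluidigm C1 HT chip, with 1 tumour of each arm per experiment. The labels do not say whether the transduced lines were clones or pools. Whole bulk tumours were homogenised, no depletion of mouse cells is named for them, and how mouse reads were treated is not given.

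TGF-beta ligands bind a type II receptor, which phosphorylates a type I receptor that in turn activates SMAD2 and SMAD3. BMP ligands act through BMPR2 and through type I receptors that activate SMAD1, SMAD5 and SMAD9. Endoglin and TGFBR3 (betaglycan) are co-receptors that present ligands to these complexes. Endoglin is best known from endothelium, where it acts with ACVRL1 (ALK1), and SMAD7 is induced by the pathway and blocks the type I receptors.

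The bulk libraries held 37050750 to 49536763 counts in KMT5C tumours and 41665268 to 48003278 counts in CTRL tumours. KMT5C itself stood at 99.78 to 145.2 counts per 1000000 (CPM) in KMT5C tumours and at 7.165 to 11.18 CPM in CTRL tumours. The rat Pebp1 entry that marks the RKIP construct was above its lowest value in 8.65%, 44.5% and 59.4% of cells from RKIP tumours 1, 2 and 3, against 0%, 3.75% and 3.10% from CTRL tumours 1, 2 and 3. A few CTRL cells thus also held a value above the lowest. The cell values are not raw counts and their form differs between experiments, as described below. Whether such CTRL values were reads was not tested, and shares of different experiments are not compared. The line's own markers VIM, CD44 and AXL were high in the bulk tumours, ESR1, PGR and CDH1 were at or below 0.318 CPM on average, and ERBB2 was present at 80.1 CPM in KMT5C tumours and 78.7 CPM in CTRL tumours. Of these line genes MSN, a cytoskeletal linker, rose by 0.43 and GATA3, a luminal transcription factor, fell by 0.44 on the log2 scale with KMT5C (edgeR adjusted p = 0.0256 and 0.0461).

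In the bulk tumours ENG was higher with KMT5C, and the arms of every other member overlapped. ENG stood at 41.3, 37.0, 45.5, 40.9 and 38.2 CPM in KMT5C tumours 807, 809, 816, 820 and 823. It stood at 24.8, 22.3, 34.2, 22.4 and 24.3 CPM in CTRL tumours 801, 803, 804, 813 and 815. Every KMT5C tumour was above every CTRL tumour, and CTRL tumour 804 lay nearest to the KMT5C arm. The means were 40.6 ± 3.30 CPM in KMT5C tumours and 25.6 ± 4.91 CPM in CTRL tumours (SD, n = 5 each), a log2 fold change of 0.66 (SE 0.11).

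**Figure D1:**
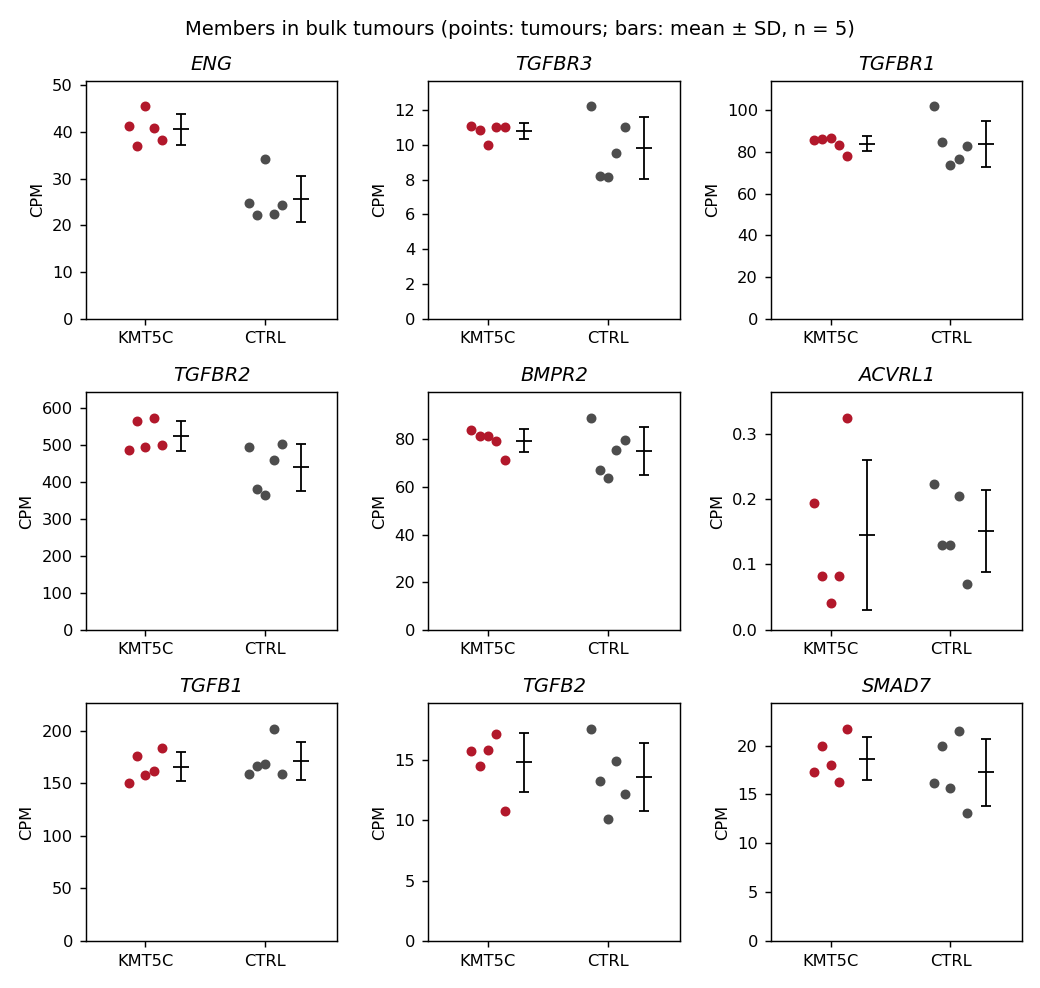
CPM of the 9 genes in KMT5C and CTRL bulk tumours; points are tumours, the bar is the mean with its SD (n = 5 each), and each vertical axis starts at 0. ENG is the gene whose arms do not overlap, at 37.0 to 45.5 CPM in KMT5C tumours and 22.3 to 34.2 CPM in CTRL tumours.

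The second co-receptor, TGFBR3, had 9.96 to 11.1 CPM in KMT5C tumours and 8.14 to 12.2 CPM in CTRL tumours, with a log2 fold change of 0.13 (SE 0.11). TGFBR1, the type I receptor for TGF-beta, had 77.9 to 86.6 CPM in KMT5C tumours and 73.6 to 101.8 CPM in CTRL tumours. Its log2 fold change was 0.00064 (SE 0.08), and the spread was wider among CTRL tumours. ACVRL1, the partner of endoglin in endothelium, had only 2 to 14 counts per KMT5C tumour and 3 to 11 counts per CTRL tumour, too few to pass the filter on low counts.

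TGFBR2, the type II receptor for TGF-beta, stood at 487.0, 563.3, 493.8, 573.4 and 499.8 CPM in KMT5C tumours 807, 809, 816, 820 and 823. It stood at 493.0, 379.9, 365.0, 459.4 and 501.3 CPM in CTRL tumours 801, 803, 804, 813 and 815. The arms overlapped, since CTRL tumour 815 lay above 3 of the 5 KMT5C tumours and CTRL tumour 801 above 1 of them. The log2 fold change was 0.25 (SE 0.10). BMPR2, the type II receptor for BMPs, averaged 79.4 ± 4.85 CPM in KMT5C tumours and 75.0 ± 10.1 CPM in CTRL tumours (SD, n = 5 each), with a log2 fold change of 0.08 (SE 0.09).

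Of the ligands, TGFB1 had 149.9 to 183.3 CPM in KMT5C tumours and 158.5 to 202.0 CPM in CTRL tumours, with a log2 fold change of -0.04 (SE 0.08). TGFB1 overlaps HNRNPUL1 on the opposite strand in GENCODE 29, at 372.3 CPM over all bulk tumours. Since the strand setting of the counting is not given, reads of the overlap cannot be told apart. ENG overlaps an antisense gene, AL162586.1, on the opposite strand, for which no CPM was available, so the same limit holds for ENG. TGFB2 had 10.8 to 17.2 CPM in KMT5C tumours and 10.1 to 17.6 CPM in CTRL tumours, with a log2 fold change of 0.12 (SE 0.14). SMAD7 had 16.3 to 21.7 CPM in KMT5C tumours and 13.1 to 21.5 CPM in CTRL tumours, with a log2 fold change of 0.11 (SE 0.12).

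Of the 8 members that passed the filter, 1 (ENG) was called at an adjusted p below 0.05 in edgeR, where 2.96% of the 17947 genes tested were called, 1.06% higher and 1.9% lower. Its arms were also the only ones of the 8 that did not overlap, against 5.7% of all genes tested (2.44% higher and 3.26% lower). Since ENG was listed for this contrast, nothing is read from these counts. The median log2 fold change over the 8 members was 0.12, against 0.0023 over all genes tested.

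Per kilobase of exon, TGFBR2 was the most abundant member, at 111.3 CPM per kb in KMT5C tumours and 93.5 CPM per kb in CTRL tumours. TGFB1 followed at 51.3 CPM per kb in KMT5C tumours and 52.8 CPM per kb in CTRL tumours, and TGFBR1 at 12.3 CPM per kb in both arms. ENG stood at 10.3 CPM per kb in KMT5C tumours and 6.51 CPM per kb in CTRL tumours, so that it lay above BMPR2 (6.68 CPM per kb) in KMT5C tumours and beside BMPR2 (6.30 CPM per kb) in CTRL tumours, where their ranges overlapped. In KMT5C tumours the range of ENG also reached that of TGFBR1. SMAD7, at 3.71 CPM per kb in KMT5C tumours and 3.43 CPM per kb in CTRL tumours, and TGFB2, at 2.88 CPM per kb in KMT5C tumours and 2.64 CPM per kb in CTRL tumours, were lower and overlapped in both arms. TGFBR3 came next at 1.24 CPM per kb in KMT5C tumours and 1.13 CPM per kb in CTRL tumours, and ACVRL1 was lowest at 0.0288 CPM per kb in KMT5C tumours and 0.0301 CPM per kb in CTRL tumours.

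Markers of host or other cells were set beside ENG, because in bulk tissue fewer cells of a type and less RNA per cell cannot be told apart. Of 19 endothelial markers in the table, 9 averaged below 1 CPM and 3 (EMCN, PLVAP and SOX17) below 0.1 CPM. Their summed level was 279.6 to 357.2 CPM in KMT5C tumours and 291.3 to 361.9 CPM in CTRL tumours, and the arms overlapped. The sum came mostly from ESAM, ROBO4 and TIE1, which were also in the table of cells depleted of mouse cells. The defining endothelial marker CDH5 averaged 1.49 CPM in KMT5C tumours and 2.53 CPM in CTRL tumours, and VWF 0.296 CPM in KMT5C tumours and 0.276 CPM in CTRL tumours. Of 16 tested endothelial markers, 5 had a positive and 11 a negative log2 fold change, and 2 were called, both lower. TIE1, an endothelial receptor, fell by 0.63 on the log2 scale (edgeR adjusted p = 0.0254), though its arms overlapped. ECSCR, an endothelial surface protein, fell by 1.14 (edgeR adjusted p = 0.0116), from 1.61 CPM in CTRL tumours to 0.729 CPM in KMT5C tumours. ESAM, the most abundant, had a log2 fold change of 0.08.

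Skeletal muscle markers, like ENG, were higher in the KMT5C arm. Values of some tumours follow as a description, and a link between muscle sums and ENG within an arm was not tested. KMT5C tumour 809 had the highest muscle sum of its arm (55.8 CPM) and the lowest ENG (37.0 CPM). CTRL tumour 813 had the highest muscle sum of its arm (25.4 CPM) with ENG at 22.4 CPM. CTRL tumour 804, the highest of its arm in ENG, had a muscle sum of 22.6 CPM. The muscle sum was 28.9 to 55.8 CPM in KMT5C tumours and 13.7 to 25.4 CPM in CTRL tumours, without overlap, and 6 of 10 tested muscle genes were called higher. CKM, the creatine kinase of muscle, averaged 3.39 CPM in KMT5C tumours and 1.20 CPM in CTRL tumours. Leukocyte markers summed to 94.3 to 126.1 CPM in KMT5C tumours and 127.0 to 173.5 CPM in CTRL tumours, again without overlap, and LAPTM5, a lysosomal protein of blood cells, fell by 0.65 on the log2 scale (edgeR adjusted p = 0.00204). LAPTM5 made up most of that sum, at 89.6 CPM in KMT5C tumours and 140.4 CPM in CTRL tumours, and it was also measured in the cells depleted of mouse cells. Of 6 tested leukocyte markers, 2 had a positive and 4 a negative log2 fold change, and LAPTM5 was the 1 called. The defining leukocyte marker PTPRC averaged 0.488 CPM in KMT5C tumours and 0.557 CPM in CTRL tumours, and C1QA, C1QB and TYROBP were at 0 in all 10. Fibroblast and pericyte markers summed to 479.8 to 1045 CPM in KMT5C tumours and 390.8 to 949.7 CPM in CTRL tumours, and adipocyte markers to 2.48 to 2.82 CPM in KMT5C tumours and 2.46 to 3.90 CPM in CTRL tumours. The mean log2 CPM of a marker list, genes near 0 included, was also used as a covariate. With the muscle markers the log2 fold change of ENG was 0.73 (SE 0.18), and with the endothelial markers it was 0.71 (SE 0.20), where the SE was 0.11 without a covariate. ENG was not called with either covariate, and only 23 and 39 genes were called, against 531 without one. Since the muscle sums separated the arms, that fit cannot tell arm and muscle apart. The SE was also larger with the endothelial markers, so their fit is likewise not read as separating the arm from the markers. Nothing about ENG is read from the loss of its call. The part of host or other cells in the ENG values was not tested.

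**Figure D2:**
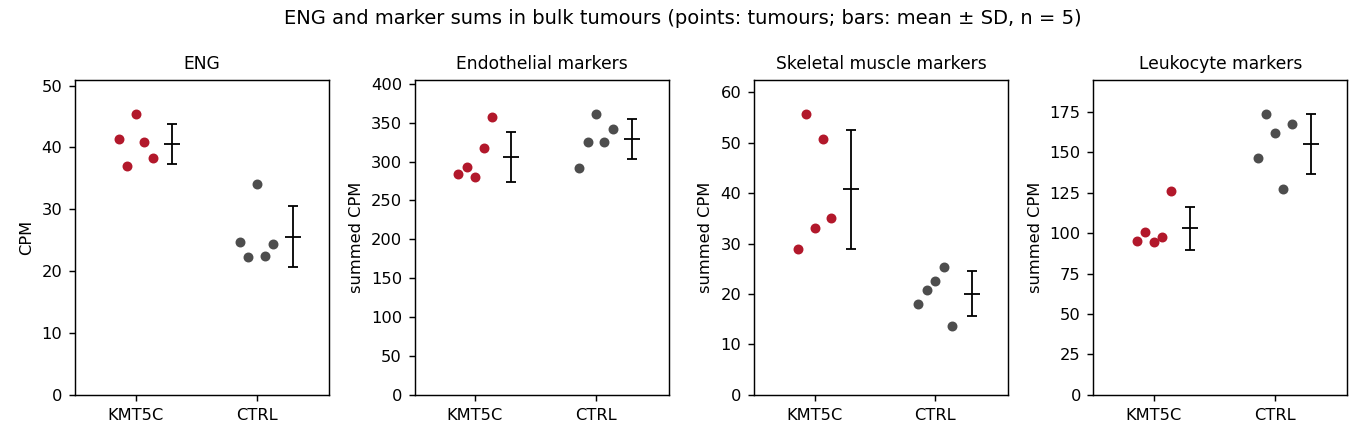
CPM of ENG and summed CPM of 3 marker lists in KMT5C and CTRL bulk tumours; points are tumours and the bar is the mean with its SD (n = 5 each). ENG and the muscle sum are higher in all KMT5C tumours, the leukocyte sum, which is mostly LAPTM5, is lower in all of them, and the endothelial sums overlap.

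The rest of the pathway was described through lists of genes by role. Of 9 tested other ligands, 1 was called higher, BMP6, at 3.31 ± 0.582 CPM in KMT5C tumours and 1.78 ± 0.211 CPM in CTRL tumours (SD, n = 5 each), a log2 fold change of 0.90 (edgeR adjusted p = 0.00458). BMP4, the most abundant of these ligands, averaged 95.1 CPM in KMT5C tumours and 93.4 CPM in CTRL tumours, and BMP2 33.0 CPM in KMT5C tumours and 23.5 CPM in CTRL tumours (edgeR adjusted p = 0.087). None of the 11 tested genes of ligand storage and activation was called. Among them LTBP1, which binds latent TGF-beta in the matrix, averaged 584.7 CPM in KMT5C tumours and 453.2 CPM in CTRL tumours (edgeR adjusted p = 0.0749). THBS1, which can activate latent TGF-beta, averaged 401.0 CPM in KMT5C tumours and 442.4 CPM in CTRL tumours.

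None of the 11 tested other receptors, 6 signalling SMADs or 15 pathway inhibitors was called in bulk. The co-receptor NRP1 averaged 461.4 CPM in KMT5C tumours and 385.4 CPM in CTRL tumours (edgeR adjusted p = 0.103), and the BMP co-receptor RGMB 279.6 CPM in KMT5C tumours and 269.9 CPM in CTRL tumours. SMAD3, the transducer of TGF-beta signals, averaged 150.3 CPM in KMT5C tumours and 146.8 CPM in CTRL tumours, and SMAD5, a transducer of BMP signals, 81.3 CPM in KMT5C tumours and 77.7 CPM in CTRL tumours. PMEPA1, an inhibitor that TGF-beta induces, averaged 266.1 CPM in KMT5C tumours and 296.5 CPM in CTRL tumours, and SMURF2, a ubiquitin ligase that SMAD7 brings to the type I receptor, 450.1 CPM in KMT5C tumours and 418.1 CPM in CTRL tumours.

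Targets of the pathway were described in the same way. Of 21 tested TGF-beta targets none was called, and their median log2 fold change was 0.07. FN1, the matrix protein fibronectin, averaged 3777 ± 373.4 CPM in KMT5C tumours and 3356 ± 986.9 CPM in CTRL tumours (SD, n = 5 each). Of 10 tested BMP and ALK1 targets, 1 was called higher, the homeobox gene MSX2, at 1.55 ± 0.342 CPM in KMT5C tumours and 0.832 ± 0.171 CPM in CTRL tumours (SD, n = 5 each), a log2 fold change of 0.90 (edgeR adjusted p = 0.0263). HEY1, a transcriptional repressor, averaged 9.53 CPM in KMT5C tumours and 11.7 CPM in CTRL tumours (edgeR adjusted p = 0.199), and NOG, a secreted BMP antagonist, 45.9 CPM in KMT5C tumours and 44.4 CPM in CTRL tumours.

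The genes most like ENG over the 10 bulk tumours, after each arm's mean was removed, were ARMCX3 (Pearson r 0.93), NLRC5 (0.91), RAB11FIP3 (0.91), ENGASE (0.91) and ACP6 (0.90) among 10099 genes compared. The 5 were picked as the highest of 10099 genes over 10 tumours, and how high such r would be by chance was not tested. The tumours share their library depth and tissue makeup across genes, so these values are a description. They rest in part on CTRL tumour 804, the tumour that stood apart in ENG, since without it r was 0.54 to 0.70 for the same 5 genes. The other 7 tested members had r between -0.26 and -0.48 with ENG, the lowest being TGFBR2 at -0.48. CTRL tumour 804 was also the lowest of its arm in TGFBR1, TGFBR2, TGFBR3, TGFB2 and BMPR2. The negative values may thus rest in part on that tumour, and r of the members was not computed without it.

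The single-cell values needed a closer look before they were used, because they do not have the form of raw counts. In experiment 1, TGFBR2 had the value 1 in 196 cells, 3 in 63 cells, 5 in 47 cells and 7 in 20 cells, but 0, 2, 4, 6 or 8 in no cell. In experiments 2 and 3 the same gene was 0 in 78 and 79 cells. SMAD7 in experiment 3 was 0 in 368 cells and 2 in 45 cells, and 1 in no cell. A gene was said to skip a value where no cell held it while at least 10 cells held each neighbouring value, for values up to 6. In experiment 1, 5041 of 6819 genes that could be checked skipped a value, against 95 of 9445 in experiment 2 and 562 of 9605 in experiment 3.

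**Figure D3:**
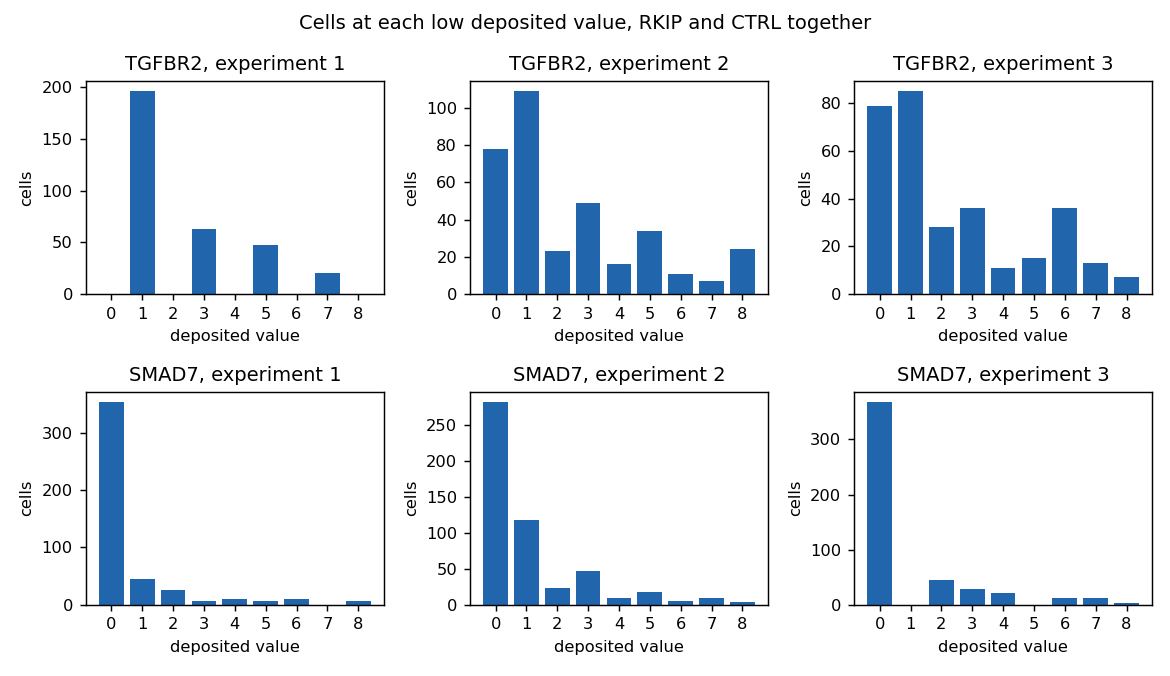
Number of cells at each deposited value of 0 to 8 for TGFBR2 and SMAD7 in the 3 single-cell experiments, both arms together. TGFBR2 in experiment 1 holds no 0 and no even value in this range, and SMAD7 in experiment 3 holds no 1 and no 5.

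The gaps were shared by the arms: no CTRL cell of experiment 1 held any of the 5283 values that RKIP cells of that experiment skipped. The table thus does not hold raw counts, and no source used here names the step that made its values. Its effect on a difference between the arms was not tested. A cell with a TGFBR2 value of 1 in experiment 1 therefore need not be a cell with a read, levels cannot be compared between experiments, and no count model was used for the cells. RKIP and CTRL were compared within each experiment on the mean over cells of log2(value + 1), and detection was taken as a value above the gene's lowest in that experiment.

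The 6 tumours held 266, 274 and 256 RKIP cells and 247, 267 and 258 CTRL cells in experiments 1, 2 and 3. The summed value of the median cell was 90591, 57023 and 73751 in RKIP tumours 1, 2 and 3, against 95289, 55704 and 66420.5 in CTRL tumours 1, 2 and 3. The median number of genes above 0 per cell was higher in RKIP cells in all 3 experiments, at 3305, 4472 and 4953.5 genes, against 3130, 4361 and 4709 genes in CTRL cells.

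Endoglin did not separate the RKIP and CTRL cells. The mean log2(value + 1) of ENG was 0.37, 0.52 and 0.65 in RKIP tumours 1, 2 and 3, and 0.45, 0.54 and 0.63 in CTRL tumours 1, 2 and 3. RKIP was lower in experiments 1 and 2 and higher in experiment 3. The difference of RKIP minus CTRL was -0.02 (SE 0.05, 95% interval -0.16 to 0.12, limma adjusted p = 0.955). ENG was above its lowest value in 12.4%, 24.1% and 27.3% of cells in RKIP tumours 1, 2 and 3, against 13.8%, 23.2% and 23.3% in CTRL tumours 1, 2 and 3, so most cells of every tumour showed no ENG above that floor.

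SMAD7 was the member with the largest difference in cells. Its mean log2(value + 1) was 0.88, 1.06 and 0.89 in RKIP tumours 1, 2 and 3, and 0.69, 0.67 and 0.51 in CTRL tumours 1, 2 and 3. RKIP was higher in 3 of 3 experiments, by 0.20, 0.39 and 0.38. The difference was 0.32 (SE 0.06, 95% interval 0.15 to 0.49), and the limma p was 0.00485 before and 0.481 after adjustment over 11461 genes, so it was not called. SMAD7 was above its lowest value in 35.0%, 58.0% and 34.0% of cells in RKIP tumours 1, 2 and 3, against 27.1%, 37.5% and 22.9% in CTRL tumours 1, 2 and 3.

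BMPR2 had the next largest difference. Its mean log2(value + 1) was 1.18, 1.21 and 1.52 in RKIP tumours 1, 2 and 3, and 1.04, 0.96 and 1.17 in CTRL tumours 1, 2 and 3. The difference was 0.24 (SE 0.06, 95% interval 0.08 to 0.41, limma adjusted p = 0.495), again higher in 3 of 3 experiments. BMPR2 was above its lowest value in 41.4%, 50.7% and 56.3% of RKIP cells in experiments 1, 2 and 3, against 33.2%, 44.6% and 51.6% of CTRL cells.

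These shares rest on cells of unequal depth. Thinning to 1 depth needs raw counts and was not possible, and exact binomial intervals of a share, such as 19.1% to 29.6% for ENG in RKIP tumour 2, cover counting error only. With 3 pairs of tumours no exact test of a share can reach a p below 0.25, so the shares are a description.

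**Figure D4:**
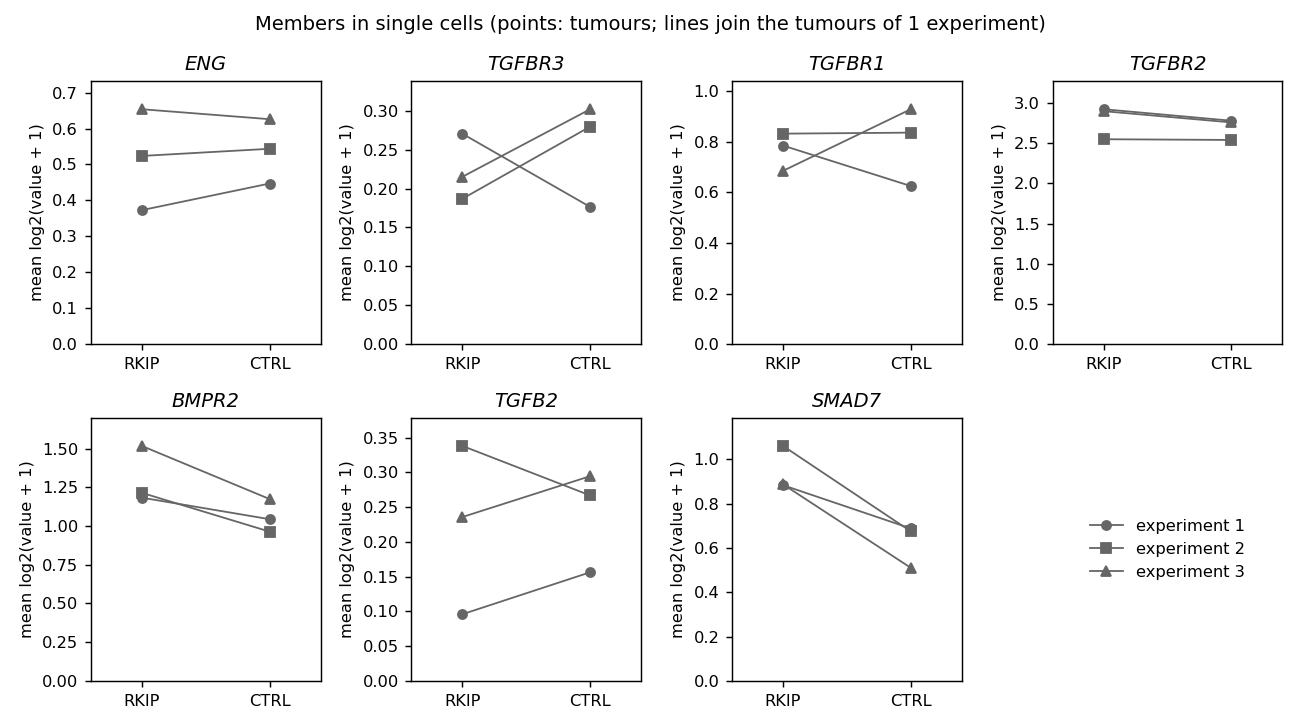
Mean over cells of log2(value + 1) for the 7 members in the table, in RKIP and CTRL tumours; each line joins the tumours of 1 experiment, and each vertical axis starts at 0. SMAD7, BMPR2 and TGFBR2 are higher in RKIP in 3 of 3 experiments (TGFBR2 in 2 of 3 with values scaled to the same sum per cell), and the other members change direction between experiments.

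The mean log2(value + 1) of TGFBR2 was 2.92, 2.55 and 2.90 in RKIP tumours 1, 2 and 3, and 2.78, 2.54 and 2.76 in CTRL tumours 1, 2 and 3. TGFBR2 differed by 0.10 (SE 0.06, 95% interval -0.05 to 0.25, limma adjusted p = 0.703), with RKIP higher in 3 of 3 experiments but by only 0.0091 in experiment 2. With values scaled to the same sum per cell, an alternative chosen after seeing the data, it differed by 0.038 (SE 0.05) and was higher in 2 of 3 experiments. It was the most widely detected member, above its lowest value in 68.8% to 85.9% of cells in RKIP tumours and 54.7% to 86.1% in CTRL tumours. Higher in 3 of 3 experiments were 3 of the 7 members, against 22.2% of all genes tested, while 8.25% of all genes were lower in all 3. The median difference over all genes tested was 0.03. TGFBR1 differed by -0.03 (95% interval -0.27 to 0.21), TGFBR3 by -0.03 (95% interval -0.19 to 0.14) and TGFB2 by -0.02 (95% interval -0.16 to 0.13), each with RKIP higher in 1 of 3 experiments. TGFBR1 was above its lowest value in 27.1% to 46.7% of cells in RKIP tumours and 21.9% to 42.3% in CTRL tumours. For TGFBR3 these shares were 10.2% to 11.3% in RKIP tumours and 8.10% to 13.95% in CTRL tumours, and for TGFB2 3.76% to 14.96% in RKIP tumours and 6.48% to 12.4% in CTRL tumours. None of the 7 members was called in limma, where 0.00873% of genes were called, the 1 gene being FAM133A, named after its value was seen. Without adjustment 2 of the 7 members had a p below 0.05, SMAD7 and BMPR2, against 8.85% of all genes tested.

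None of the other pathway genes tested in the cells was called in limma, among them 4 ligands, 9 genes of ligand storage, 7 receptors, 5 signalling SMADs, 14 inhibitors and 8 BMP and ALK1 targets. Of 18 tested TGF-beta targets 15 had a positive difference, where 64.4% of all genes tested had one, and their median was 0.13 against 0.03 over all genes. Of the same 18, 6 had an unadjusted p below 0.05, against 8.85% of all genes tested. SMURF2 stood at 2.96, 2.60 and 3.04 in RKIP tumours 1, 2 and 3 and at 2.34, 2.55 and 2.68 in CTRL tumours 1, 2 and 3 on the log2(value + 1) scale, a difference of 0.34 (SE 0.12, limma adjusted p = 0.540). FN1 differed by -0.23 (SE 0.14). BMP2 differed by 0.15, BMP4 by 0.23, THBS1 by 0.26 and SMAD3 by 0.18, each with RKIP higher in 3 of 3 experiments. Other abundant genes of the lists were less even. LTBP1 (0.23), NRP1 (0.06), RGMB (0.11), PMEPA1 (0.11) and the BMP targets ID1 (0.13) and ID4 (0.02) were higher in 2 of 3. SMAD5 (-0.06) was higher in 1 of 3. Of 4 endothelial markers tested in the cells, 2 had a positive and 2 a negative difference. The 2 most abundant, ESAM and ROBO4, differed by 0.25 and 0.22, and LAPTM5, listed as a leukocyte marker, by 0.24. COL1A1 and CSPG4, listed as fibroblast and pericyte markers, differed by 0.0047 and -0.011. The part of such markers in these differences was not tested. With values scaled to the same sum per cell, the difference was 0.31 for SMAD7 (SE 0.07) and 0.22 for BMPR2 (SE 0.06), each higher in 3 of 3 experiments, and 58.5% of all genes had a positive difference.

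Variation between cells was taken as the SD over cells of log2(value + 1), less its trend on the mean. For ENG it was lower in RKIP in 3 of 3 experiments, with a difference of -0.04 (SE 0.04, 95% interval -0.13 to 0.04, limma adjusted p = 0.932), and -0.088 (SE 0.07) with no trend removed. In experiment 1 the values of ENG were nearly equal, at 0.133 in RKIP and 0.136 in CTRL. TGFBR1 was also lower in RKIP in 3 of 3 experiments, with a difference of -0.07 (SE 0.04, 95% interval -0.15 to 0.02, limma adjusted p = 0.921). The share of all genes with lower variation in 3 of 3 experiments was not computed, so nothing is read from these directions. The differences of the other 5 members lay between -0.04 and 0.04, and none was called, where 0.00873% of the 11461 genes were called and 5.37% had an unadjusted p below 0.05. The 1 called gene was the rat Pebp1 entry of the construct, more variable in RKIP by 0.38 (limma adjusted p = 0.0149).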

How the data were processed

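Bulk RNA sequencing of 10 xenograft tumours and single-cell RNA sequencing of 6 were read from 2 tables. The bulk values are raw counts per gene and tumour; per the submitters' processing notes the authors used STAR, featureCounts and Trim Galore, with no versions, and the builds hg38 and hg19, whose roles are not stated. No coordinates are therefore printed. Symbols were found for 51996 identifiers, and those without one held 0.664% of the counts.

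The deposited single-cell values are treated as a score: whole numbers that skip values per gene and experiment and so are not raw counts, although the table is named as counts. No source used here gives the adjustment that made them or says whether molecular identifiers were used. An edgeR test on summed counts, and thinning of cells to 1 depth, had been planned and were replaced, after this was seen, by limma on means and SDs over cells of log2(value + 1) (pseudocount 1).

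Bulk counts were tested with edgeR 4.0.16 (R 4.3.3; filterByExpr, TMM, quasi-likelihood), with DESeq2 1.42.0 as an alternative. CPM are counts per 1000000 of the scaled library, and exon lengths are from GENCODE 29. Single-cell means, and SDs less a lowess trend (fraction 0.3), were compared with limma 3.58.1 with the experiment as a block. Genes above their experiment's lowest value in at least 5% of cells were tested. All p-values were two-sided and adjusted by the Benjamini-Hochberg method over all genes tested, with a threshold of 0.05. The fits were tested on simulated data.

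Column names give each cell's arm and chip, and the experiment numbers are arbitrary. Each label describes 1 tumour of each arm per experiment; deviations from the arm means correlated at 0.210, 0.147 and 0.216 between tumours of the same experiment, so the experiments pair the tumours. Cells with fewer than 1000 genes above 0 were left out (1 cell), and no doublet caller was run. No bulk library was a copy of another (smallest chi-square per degree of freedom 7.35). Each bulk tumour came from its own mouse. Counting intervals cover counting error only.

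Named genes were all members, list genes that were called (at most 6 per list and direction, 3 for markers), the 2 most abundant of each list, and the 5 most like ENG among genes of mean log2 CPM of at least 3. The values of 1 gene under this rule are not reported here. Members and lists were chosen with earlier results of these data known.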

Additional observations from a re-analysis of the deposited data

Results flagged for a closer look

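In 16 groups of 5 bulk tumours (8 members in each arm), 3 held a tumour far from the others of its arm, where chance flags about 1 group in 20. ENG was 34.2 CPM in CTRL tumour 804, above the other CTRL tumours, and without that tumour the log2 fold change of ENG was 0.79. TGFBR3 was 9.96 CPM in KMT5C tumour 816, below the other KMT5C tumours. TGFB1 was 202.0 CPM in CTRL tumour 813, above the other CTRL tumours.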

How the results depend on the processing

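With DESeq2 1126 genes were called in bulk, with no filter on low counts 801, with muscle markers as a covariate 23 and with endothelial markers 39, against 531 in the report. Leaving out 1 bulk tumour in turn gave 337 to 681 genes, with 344 without KMT5C tumour 807, 337 without KMT5C tumour 820 and 351 without CTRL tumour 803. ENG was higher in KMT5C in all these fits, at log2 fold changes of 0.62 to 0.79 without 1 tumour. Members near 0 changed sign. TGFBR1 was -0.0071 with no filter, -0.055 with endothelial markers and -0.038 to 0.086 without 1 tumour. TGFB1 was 0.033 with endothelial markers and -0.086 to 0.033 without 1 tumour, and SMAD7 was -0.13 with muscle markers. The cause of these changes was not tested.

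In single cells, 0 genes were called on the mean with no filter on low values, 0 with values scaled to the same sum per cell (an alternative chosen after seeing the data) and 0 to 0 without 1 experiment, where 1 gene was called in the report. These limma counts of 0 stand beside 1214, 862 and 793 to 992 genes at an unadjusted p below 0.05. Without 1 experiment the differences were -0.047 to 0.0039 for ENG, -0.12 to 0.078 for TGFBR1, -0.090 to 0.0036 for TGFBR3 and -0.060 to 0.0062 for TGFB2, with a change of sign in each. SMAD7 was 0.29 to 0.38 and BMPR2 0.19 to 0.30. With the scaled values TGFBR2 was 0.038, against 0.097, and TGFB2 -0.0076, against -0.016. Without the replicate block 1 gene was called on the mean, and the adjusted p of SMAD7 and of BMPR2 was 1.00.

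For variation, 0 genes were called without the replicate block (limma, 207 at an unadjusted p below 0.05), 0 with no trend removed (618, chosen after seeing the data) and 0 to 8 without 1 experiment, 8 of them without experiment 3. Without 1 experiment TGFBR2 was -0.10 to 0.050, TGFBR3 -0.00034 to 0.10 and SMAD7 -0.11 to 0.041. With no trend removed TGFBR3 was -0.0051, SMAD7 0.18, ENG -0.088, TGFBR1 -0.085, TGFBR2 -0.056, TGFB2 -0.082 and BMPR2 0.11, and none was called. DESeq2, RLE factors, other thinning depths, lower thinned means and unthinned shares had been planned for the cells and were not run, because the values are not counts.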
